A study of Homo sapiens with 8 samples.

Results

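The genes examined were the host genes of small RNAs and a few well known long noncoding RNAs (lncRNAs) in HepG2 cells, a human hepatocarcinoma cell line. Members were the genes of the expression table with a symbol of the form SNHG followed by a number or MIR...HG, together with GAS5, MALAT1, NEAT1, HULC, DANCR, EPB41L4A-AS1, NORAD and OIP5-AS1. They numbered 65 of the 17561 genes, and all 8 genes listed by symbol were present. By role there were 28 hosts of small nucleolar RNAs (snoRNAs), namely 25 SNHG genes with GAS5, DANCR and EPB41L4A-AS1, then 32 microRNA (miRNA) hosts and 5 other lncRNAs. RNA-seq had been performed 48 h after transfection with pGRHL2, a plasmid that expresses the epithelial transcription factor GRHL2 fused to a flag tag from an EEF1A1 promoter and also encodes enhanced green fluorescent protein, or with the control vector pcDNA3. Each plasmid was represented by 4 libraries from independent biological replicates of the same cell line, all grown in William's medium with serum, insulin and dexamethasone. The plasmids thus differed in promoter and reporter as well as in GRHL2, and the share of cells that took up a plasmid was not analysed here. The question was whether GRHL2 ectopic expression came with other levels of these noncoding transcripts.

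Small RNA host genes make a long spliced transcript whose introns hold snoRNAs, or whose body holds miRNA hairpins. The snoRNAs guide methylation or pseudouridylation of ribosomal and spliceosomal RNA, while miRNAs are cut out by DROSHA and DICER1 and repress mRNAs through Argonaute proteins. Many spliced snoRNA host transcripts are degraded by nonsense-mediated decay, and several begin with a terminal oligopyrimidine (TOP) sequence like that of ribosomal protein mRNAs. NEAT1 builds nuclear paraspeckles, MALAT1 sits in nuclear speckles, NORAD is a cytoplasmic transcript induced by DNA damage and HULC was first described as a transcript of hepatocellular carcinoma. The libraries were made with an mRNA kit, and the values given are those of the host genes, apart from 4 small RNAs with rows of their own.

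The small RNAs held by 3 snoRNA hosts are shown because these hosts had the lowest log2 fold changes (log2 FC, pGRHL2 minus pcDNA3) of all members. SNORA71A lies in SNHG17 (hg38, chr20:38427309-38427442, minus strand), SNORA60 in SNHG11 (chr20:38449370-38449503, plus strand) and SNORD50B in SNHG5 (chr6:85677589-85677658, minus strand), each taken from GENCODE release 44. Capitals mark the ACA box near the end of the H/ACA snoRNAs SNORA71A and SNORA60, and boxes C and D of the C/D snoRNA SNORD50B.
SNORA71A: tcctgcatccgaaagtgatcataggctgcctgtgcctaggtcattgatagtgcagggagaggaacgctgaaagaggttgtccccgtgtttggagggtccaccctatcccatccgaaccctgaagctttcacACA
SNORA60: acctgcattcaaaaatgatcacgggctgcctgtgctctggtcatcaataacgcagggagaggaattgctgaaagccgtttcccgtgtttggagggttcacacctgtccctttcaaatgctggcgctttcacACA
SNORD50B: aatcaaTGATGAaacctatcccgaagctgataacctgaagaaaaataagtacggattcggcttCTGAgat
Of the 28 snoRNA hosts, 24 held at least 1 RefSeq snoRNA and the other 4 (SNHG10, SNHG20, SNHG21 and SNHG22) held a small Cajal body RNA of GENCODE. SNHG14, the transcript that runs through the imprinted snoRNA clusters of chromosome 15, held 84 snoRNAs, the most of any host, whereas GAS5 held 11, SNHG1 9 and SNHG17 5.

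A TOP-like start, read here as C followed by at least 4 C or T at the annotated RefSeq start (GRCh38.p14), was present in 5 of the 24 snoRNA hosts with a promoter entry (20.8%), in 3 of 27 miRNA hosts (11.1%) and in 0 of 3 other lncRNAs. The share was 6.74% over the 12829 genes of the expression table with an entry, and 5.14% over all 27305 genes of the promoter table. The 5 snoRNA hosts with such a start are shown as the 30 bases from 5 before the start, with the pyrimidine run in capitals.
SNHG4 (chr5:139274096-139274125, plus strand): ggctgCCCTTTCCCCTCCggcctctgccgg
SNHG5 (chr6:85678709-85678738, minus strand): tcggtCTTTTacgtcggccttcgcgagcgt
SNHG12 (chr1:28581849-28581878, minus strand): agcgcCCTTTCTCCCCgccgcattcccggt
SNHG19 (chr16:2155334-2155363, minus strand): cctgtCTTTTCggggtcgagtccgaggggg
SNHG32 (chr6:31834911-31834940, plus strand): tagttCTTTTTgcgaagtgggctcgtgggt
The same promoter windows, 250 bases before to 50 after the start, were searched for the Grainyhead core AACNNGTT, which reads the same on both strands. It was found in 0 of 54 members, and in 3.76% of the genes of the expression table and 4.36% of all genes with an entry. This says only that these letters are not in the windows searched, and NEAT1 and HULC had no entry.

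Of the 32 miRNA hosts, 27 held at least 1 RefSeq hairpin on their own strand, giving 50 hairpins and 84 mature miRNAs. MIR30DHG had no annotation match and was not searched. The seed, bases 2 to 8, sets which mRNAs a miRNA can pair with, and 3 seeds were shared by more than 1 host. Mature sequences of let-7 from 4 hosts, of miR-181 from 2 hosts, and of miR-221 and miR-222 from MIR222HG, the miRNA host with the highest log2 FC, are shown with the seed in capitals.
let-7a-5p (MIR100HG, MIRLET7A1HG, MIRLET7BHG): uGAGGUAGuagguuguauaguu
let-7f-5p (MIRLET7A1HG): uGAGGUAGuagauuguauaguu
let-7b-5p (MIRLET7BHG): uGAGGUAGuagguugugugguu
let-7i-5p (MIRLET7IHG): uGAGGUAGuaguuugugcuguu
miR-181a-5p (MIR181A1HG, MIR181A2HG): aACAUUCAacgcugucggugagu
miR-221-3p (MIR222HG): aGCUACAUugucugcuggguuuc
miR-222-3p (MIR222HG): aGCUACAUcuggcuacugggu

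The deposited values were on a log2 scale. Per the study's methods they were scaled for transcript length, which was not checked here. Levels are set side by side between genes with that limit. In every gene the pGRHL2 and pcDNA3 values of a replicate number average to 1 value common to all 4 numbers, which leaves 4 pair differences as the measurement. The groups then fail to overlap exactly when all 4 pair differences have 1 sign. The sequencing depth was unknown, and the transformation shrinks differences of genes with few reads. GRHL2 itself, read first as a check of the labels, lay between 16.22 and 16.87 in the pGRHL2 libraries and between 6.61 and 7.25 in the pcDNA3 libraries. All 8 hepatocyte and hepatoma markers, including ALB and AFP, were listed, with mean levels of 7.11 to 17.1, while of markers of leukocytes, endothelial cells, fibroblasts and erythroid cells 5 of 13 were listed, and 0 of all these markers passed the test.

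On this log2 scale, the median level was 7.74 for snoRNA hosts, 3.61 for miRNA hosts and 6.72 for all genes. GAS5 was the highest member at 11.2, percentile 95.5 of all genes, followed by NORAD at 10.9 and SNHG29 at 10.6. MIR9-3HG (-0.22), MIR1302-9HG (0.038) and MIR100HG (0.49) were the lowest. A level above the all-gene median was seen in 16 of 28 snoRNA hosts, in 3 of 32 miRNA hosts (MIR4435-2HG, MIR34AHG and MIR193BHG) and in 3 of 5 other lncRNAs. By these levels, the name abundant lncRNA was borne out by NORAD, NEAT1 and OIP5-AS1. It was not borne out by MALAT1, at percentile 17.1 of all genes, or HULC, at percentile 19.6. GENCODE places other genes, among them TALAM1, on the opposite strand of 83.7% of the exon bases of MALAT1, and reads had been counted without strand. The part of this overlap in the low value of MALAT1 was not tested.

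**Figure D1:**
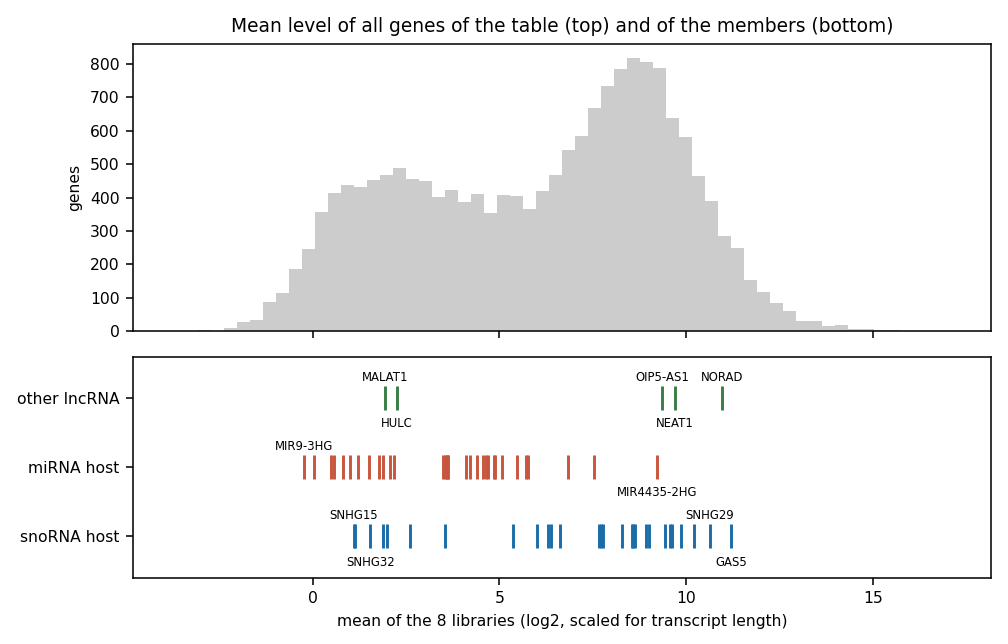
Mean of the 8 libraries (log2, scaled for transcript length per the study's methods) for all 17561 genes as a histogram (top). Each of the 65 members is a tick in its role (bottom). GAS5, NORAD and SNHG29 lie at 10.6 to 11.2 and most miRNA hosts lie below 5, as do MALAT1 and HULC.

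Between the plasmids, 0 of the 65 members were higher and 0 were lower at a limma adjusted p under 0.05. Over all genes the same test called 297 higher (1.69%) and 88 lower (0.501%), or 2.19% in either direction. Of these genes, 224 of those higher and 7 of those lower had a mean level under 5. The smallest adjusted p among members was 0.0854, in SNHG17 (limma). At an unadjusted p under 0.05 there were 9 members (13.8%), 4 higher and 5 lower, against 16.0% of all genes, so that the members held no larger share than the background. The 4 with higher values were NEAT1, MIR9-3HG, MIR600HG and SNHG14, and the 5 with lower values were SNHG17, SNHG5, SNHG11, MIR30DHG and HULC. Without the replicate block, limma called 9 members and 18.5% of all genes.

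The groups did not overlap in 16 of 65 members (24.6%), against 24.0% of all genes. Values in pGRHL2 were higher in 6 of these (13.4% of all genes), namely NEAT1, SNHG14 and the miRNA hosts MIR9-3HG, MIR600HG, MIR100HG and MIR4713HG. They were lower in the other 10 (10.5% of all genes), namely SNHG17, SNHG5, SNHG11, SNHG8, SNHG12, SNHG29, HULC and the miRNA hosts MIR1915HG, MIR181A1HG and MIR762HG. Over the 10858 genes with a mean level of at least 5 there were 973 higher and 1473 lower in all 4 pairs. Over the 6703 genes below that level there were 1384 higher and 376 lower. The members had 2 higher and 7 lower at a mean level of at least 5, and 4 higher and 3 lower below it. The median log2 FC was -0.0029 over the members and 0.0017 over all genes, and the median size of the log2 FC was 0.036 and 0.040. The 95% interval of the log2 FC lay within 0.25 of 0 for 55 of 65 members (84.6%; 81.7% of all genes) and within 0.5 of 0 for 64, the exception being SNHG17.

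**Figure D2:**
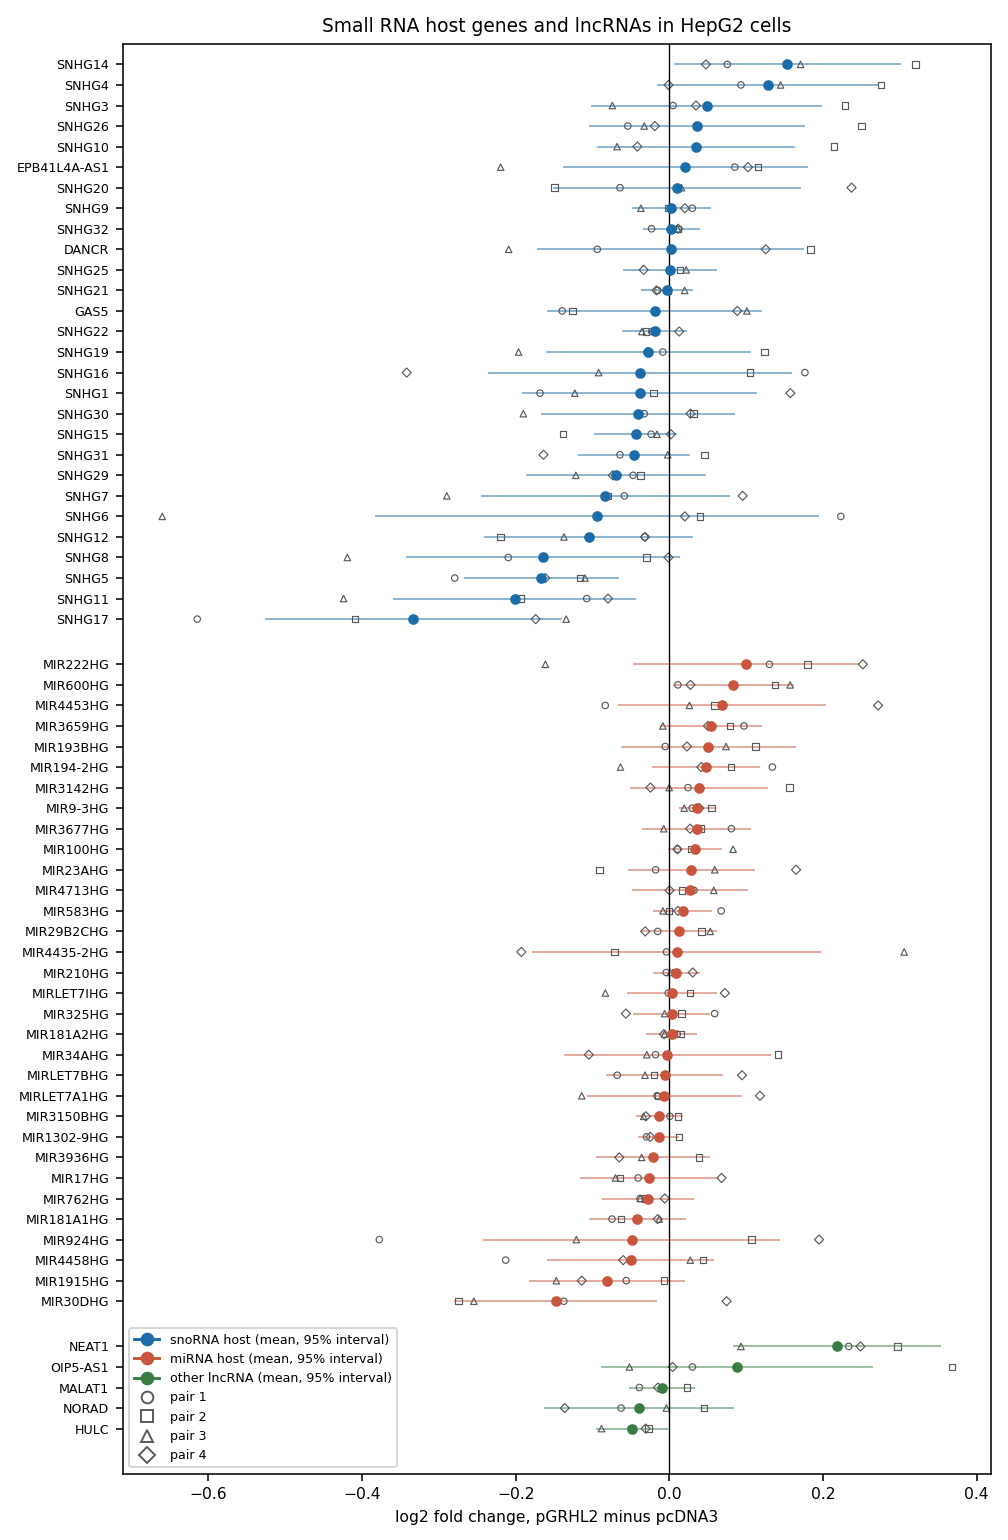
Log2 FC of the 65 members by role, with filled points for the mean of 4 pairs, lines for the limma 95% interval and open symbols for each pair difference. SNHG17 at -0.33 and NEAT1 at 0.22 are the members farthest from 0, and most intervals cross 0.

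Among the snoRNA hosts, SNHG17 on chromosome 20 (38419638 to 38435409, minus strand, hg38) had the lowest log2 FC. Across replicates 1 to 4, log2 values were 9.56, 9.66, 9.80 and 9.78 with pGRHL2 and 10.17, 10.07, 9.93 and 9.95 with pcDNA3. Every pGRHL2 value lay below every pcDNA3 value, and pairs 1 and 2 were farther apart than pairs 3 and 4. In these bulk samples, fewer cells with the transcript and less of it per cell cannot be told apart. SNHG17 had a log2 FC of -0.33 ± 0.22 (SD over 4 pairs, as for every value with ± here; limma 95% interval -0.52 to -0.14), with an unadjusted p of 0.00357 and an adjusted p of 0.0854. With library weights the log2 FC was -0.40 and the limma adjusted p was 0.0358, which made SNHG17 the 1 member called under that setting. SNHG11, 10.9 kb away on the opposite strand (chromosome 20, 38446343 to 38450940), had values of 7.72, 7.68, 7.57 and 7.74 in pGRHL2 and of 7.83, 7.87, 7.99 and 7.82 in pcDNA3. Its groups did not overlap either, with the widest gap in pair 3. The log2 FC of SNHG11 was -0.20 ± 0.16 (limma adjusted p = 0.192), and -0.13 without pair 3. Within 200 kb of SNHG17 there were 7 genes of the table, SNHG11 among them, with log2 FC from -0.20 to 0.26 and 0 called. With small RNA genes left aside, SNHG17 and SNHG11 share 0% of their exon bases with another gene. SNORA71A lies within exon bases of SNHG17, and SNORA60 within exon bases of SNHG11.

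SNHG5 (chromosome 6, 85650491 to 85678932, minus strand), which holds SNORD50B and has a TOP-like start, had values of 5.21, 5.29, 5.29 and 5.27 in pGRHL2 and of 5.49, 5.41, 5.40 and 5.43 in pcDNA3. The groups were apart in each pair, by a nearly even margin in pairs 2 and 3. SNHG5 had a log2 FC of -0.17 ± 0.08 (limma 95% interval -0.27 to -0.07, adjusted p = 0.0956). SNHG8 (chromosome 4, 118278703 to 118285316) had values of 9.33, 9.42, 9.23 and 9.44 in pGRHL2 and of 9.54, 9.45, 9.65 and 9.44 in pcDNA3. Pair 4 differed by less than 0.01, and the gap was widest in pair 3. The log2 FC of SNHG8 was -0.17 ± 0.19 (limma adjusted p = 0.351) and -0.080 without pair 3, and 37.6% of its exon bases overlap PRSS12 on the other strand, a gene with a log2 FC of 0.022 and a level of 0.20. SNHG14 (chromosome 15, 24978583 to 25420336) had values of 9.04, 9.17, 9.09 and 9.03 in pGRHL2 and of 8.97, 8.85, 8.92 and 8.98 in pcDNA3. It was the 1 snoRNA host that was higher in all 4 pairs, with a log2 FC of 0.15 ± 0.12 (limma adjusted p = 0.291), and 0.098 without pair 2.

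GAS5 (chromosome 1, 173858559 to 173868882, minus strand), a growth arrest transcript known to bind the glucocorticoid receptor, had values of 11.13, 11.14, 11.25 and 11.25 in pGRHL2 and of 11.27, 11.26, 11.15 and 11.16 in pcDNA3. The groups overlapped fully, since pGRHL2 was lower in pairs 1 and 2 and higher in pairs 3 and 4. The log2 FC of GAS5 was -0.019 ± 0.13 (limma 95% interval -0.16 to 0.12, adjusted p = 0.928). DANCR (chromosome 4, 52712325 to 52723623), named for its part in keeping progenitor cells undifferentiated, had values of 8.53, 8.67, 8.47 and 8.64 in pGRHL2 and of 8.62, 8.48, 8.68 and 8.51 in pcDNA3. It was higher with pGRHL2 in pairs 2 and 4 and lower in pairs 1 and 3, for a log2 FC of 0.0015 ± 0.18 (limma 95% interval -0.17 to 0.17, adjusted p = 0.996). EPB41L4A-AS1 (chromosome 5, 112160526 to 112164818) had values of 7.70, 7.72, 7.55 and 7.71 in pGRHL2 and of 7.62, 7.60, 7.77 and 7.61 in pcDNA3. Pair 3 stood against the other pairs, and the log2 FC was 0.021 ± 0.16 (limma adjusted p = 0.932). SNHG29 (chromosome 17, 16438767 to 16480249), the third highest member, had values of 10.60, 10.61, 10.57 and 10.59 in pGRHL2 and of 10.65, 10.65, 10.69 and 10.67 in pcDNA3. Its groups were apart but close, with a log2 FC of -0.070 ± 0.04 (limma adjusted p = 0.571).

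**Figure D3:**
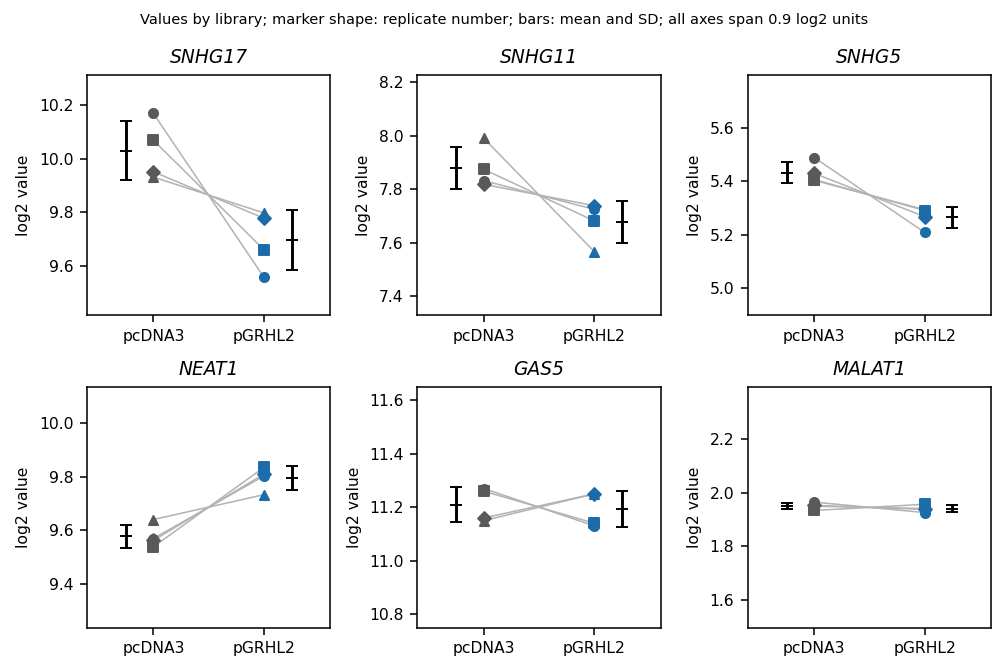
Log2 values by library of SNHG17, SNHG11, SNHG5, NEAT1, GAS5 and MALAT1, with lines joining same-numbered libraries and bars for the mean and SD of 4 libraries. Pairs differ in 1 direction in SNHG17, SNHG11, SNHG5 and NEAT1, and cross in GAS5 and MALAT1.

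The remaining snoRNA hosts were SNHG1, SNHG3, SNHG4, SNHG6, SNHG7, SNHG9, SNHG10, SNHG12, SNHG15, SNHG16, SNHG19, SNHG20, SNHG21, SNHG22, SNHG25, SNHG26, SNHG30, SNHG31 and SNHG32. Over all 28 hosts the log2 FC was above 0 in 11 and below 0 in 17, with a median of -0.023 and a range of -0.33 to 0.15. The groups were apart with lower values in 6 hosts (10.5% of all genes) and with higher values in 1 (13.4% of all genes). All 7 were among the 21 hosts with a mean level of at least 5 (33.3%). Over all genes at that level 22.5% were apart, with 973 of 10858 higher in all 4 pairs and 1473 lower. SNHG12, one of the 5 hosts with a TOP-like start, had a log2 FC of -0.11 ± 0.09 and was lower in 4 of 4 pairs, whereas SNHG4, another, had 0.13 ± 0.12 and was higher in 3 of 4 pairs. SNHG19 (-0.027) and SNHG32 (0.0025) were near 0, so the 5 hosts with this start had log2 FC on both sides of 0. SNHG32 had a level of 1.55 and 4 near-identical copies on alternative contigs, and their part in its value was not tested. SNHG6 had the widest spread of any member, with an SD of 0.39 around a log2 FC of -0.094: pairs 1, 2 and 4 differed by 0.22, 0.040 and 0.020, and pair 3 by -0.66. SNHG6 shares 58.9% of its exon bases with MCMDC2, whose log2 FC was 0.00021 at a level of -0.67.

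The median of the 28 snoRNA hosts by pair was -0.028, 0.0047, -0.083 and 0.00043 in pairs 1 to 4, and 9, 14, 7 and 14 of them were above 0. In the miRNA hosts the medians were -0.0048, 0.021, -0.0085 and 0.017, while the medians of all genes lay between 0.00078 and 0.0059. Pair 3 thus held the lowest median of both host groups. The 21 snoRNA hosts with a mean level of at least 5 had pair medians of -0.047, 0.031, -0.12 and -0.0011.

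**Figure D4:**
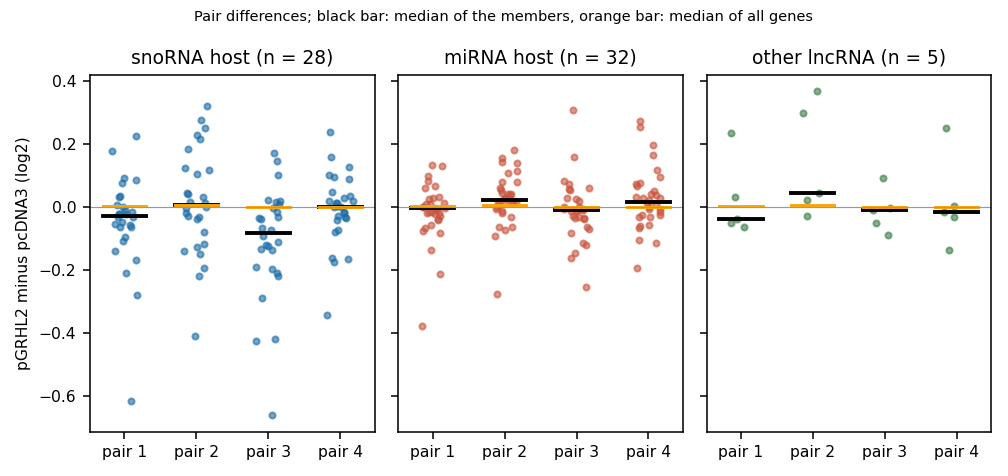
Differences pGRHL2 minus pcDNA3 (log2) of each member in pairs 1 to 4 by role, with black bars for the median of the members and orange bars for the median of all genes. The snoRNA host median is lowest in pair 3, at -0.083, and near 0 in pairs 2 and 4.

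The miRNA hosts had log2 FC from -0.15 to 0.10 with a median of 0.0062, above 0 in 19 and below 0 in 13. The groups were apart with higher values in 4 (13.4% of all genes) and with lower values in 3 (10.5% of all genes) of the 32. That is 21.9% in either direction against 24.0% of all genes. The 4 with higher values had mean levels under 5, where 1384 of 6703 genes were higher in all 4 pairs and 376 lower. MIR9-3HG (chromosome 15, 89361579 to 89424983), host of a neural miRNA, had values of -0.21, -0.19, -0.21 and -0.20 in pGRHL2 and of -0.24, -0.25, -0.23 and -0.24 in pcDNA3. It was higher in 4 of 4 pairs by a small margin at the lowest level of any member, with a log2 FC of 0.036 ± 0.02 (limma adjusted p = 0.110). MIR1302-9HG (chromosome 9, 27657 to 30891) had 5 near-identical copies at other loci and is uncertain for that reason, with a log2 FC of -0.014 ± 0.02 (limma adjusted p = 0.610). MIR100HG, host of let-7a-2, had values of 0.49, 0.50, 0.53 and 0.49 in pGRHL2 and of 0.48, 0.47, 0.45 and 0.48 in pcDNA3, a log2 FC of 0.033 ± 0.03 (limma adjusted p = 0.328).

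The 4 hosts that share the let-7 seed were close to 0 throughout, with log2 FC of 0.033 for MIR100HG, 0.0035 for MIRLET7IHG, -0.0063 for MIRLET7BHG and -0.0066 for MIRLET7A1HG. Their limma 95% intervals reached from -0.11 to 0.093 in the widest case, MIRLET7A1HG. MIR181A1HG and MIR181A2HG, which share the miR-181 seed, had log2 FC of -0.042 and 0.0027. The following hosts were chosen after their values were seen. MIR222HG, host of miR-221 and miR-222, which have been studied in liver cancer, had pair differences of 0.13, 0.18, -0.16 and 0.25 and a log2 FC of 0.10 ± 0.18 (limma adjusted p = 0.509). MIR30DHG, host of a miR-30 gene, had the lowest value of the miRNA hosts, -0.15 ± 0.16 (limma adjusted p = 0.251), with pair differences of -0.14, -0.27, -0.25 and 0.074. MIR34AHG, host of the p53-induced miR-34a, had a log2 FC of -0.0029 ± 0.10, and MIR17HG, host of the oncogenic miR-17 cluster, of -0.027 ± 0.06. MIR4435-2HG, the highest miRNA host at a level of 9.21, had a log2 FC of 0.0093 ± 0.21, and its near-identical relative CYTOR had 0.061 ± 0.17.

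The other miRNA hosts were MIR1915HG, MIR193BHG, MIR194-2HG, MIR210HG, MIR23AHG, MIR29B2CHG, MIR3142HG, MIR3150BHG, MIR325HG, MIR3659HG, MIR3677HG, MIR3936HG, MIR4453HG, MIR4458HG, MIR4713HG, MIR583HG, MIR600HG, MIR762HG and MIR924HG. Their log2 FC ran from -0.081 in MIR1915HG to 0.083 in MIR600HG. Small RNAs with rows of their own were 2 snoRNAs and 2 miRNA genes, SNORA71B, SNORA73B, MIR193B and MIR365A. These had log2 FC of -0.0023 to 0.044, and 0 were called. SNORA71B, which lies in SNHG17, had 0.044 ± 0.036 (limma adjusted p = 0.653), where its host had -0.33.

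Among the other lncRNAs, NEAT1 (chromosome 11, 65422774 to 65445540) had the highest log2 FC of all members. Its values were 9.80, 9.84, 9.73 and 9.81 in pGRHL2 and 9.57, 9.54, 9.64 and 9.56 in pcDNA3. Every pGRHL2 value lay above every pcDNA3 value, with the narrowest gap in pair 3. The log2 FC of NEAT1 was 0.22 ± 0.09 (limma 95% interval 0.085 to 0.35), with an unadjusted p of 0.00512 and an adjusted p of 0.102. MALAT1 (chromosome 11, 65497640 to 65508073), which starts 52.1 kb beyond the end of NEAT1, had values of 1.93, 1.96, 1.94 and 1.94 in pGRHL2 and of 1.97, 1.93, 1.95 and 1.95 in pcDNA3. The groups overlapped, and the log2 FC was -0.010 ± 0.03 (limma 95% interval -0.052 to 0.032, adjusted p = 0.862). Within 200 kb of NEAT1 there were 17 genes of the table, with log2 FC of -0.068 to 0.15 and 0 called.

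HULC (chromosome 6, 8435568 to 9294133), a liver cancer lncRNA, had values of 2.23, 2.24, 2.21 and 2.24 in pGRHL2 and of 2.28, 2.27, 2.30 and 2.27 in pcDNA3. It was lower in 4 of 4 pairs by a small margin, with a log2 FC of -0.049 ± 0.03 (limma adjusted p = 0.273). NORAD (chromosome 20, 36045618 to 36051018, minus strand), the DNA damage-activated lncRNA, had values of 10.92, 10.97, 10.95 and 10.88 in pGRHL2 and of 10.98, 10.93, 10.95 and 11.02 in pcDNA3. The groups overlapped, with a log2 FC of -0.040 ± 0.08 (limma 95% interval -0.16 to 0.082, adjusted p = 0.794). OIP5-AS1 (chromosome 15, 41283958 to 41322392), also known as cyrano, had values of 9.37, 9.54, 9.33 and 9.36 in pGRHL2 and of 9.34, 9.17, 9.38 and 9.36 in pcDNA3. Only pair 2 was wide apart, and the log2 FC was 0.087 ± 0.19 (limma adjusted p = 0.653).

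How far a member could be measured depended on its level. In the 31 members with a mean level of at least 5, the median SD of the 4 pair differences was 0.14, and in the 34 below that it was 0.035. The same medians over all genes were 0.12 and 0.037. The narrow intervals of MALAT1, HULC and most miRNA hosts are therefore to be read with the shrinkage of low values in mind.

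**Figure D5:**
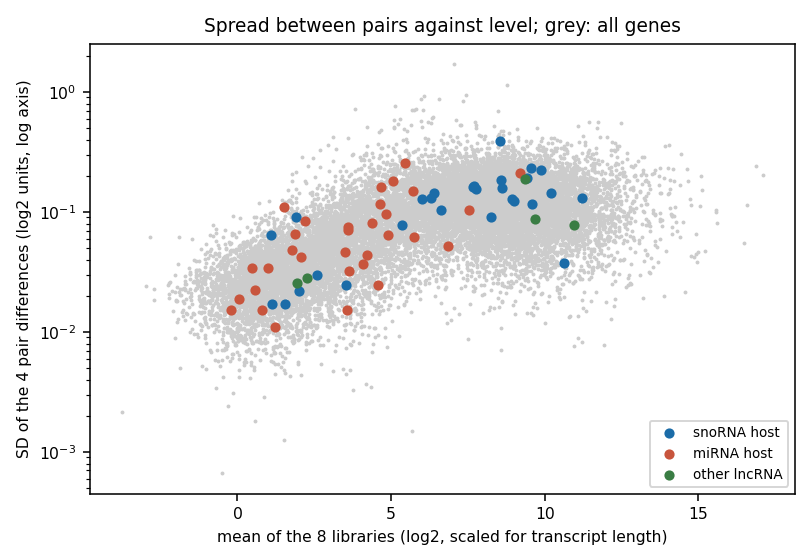
SD of the 4 pair differences (log2 units, log axis) against the mean of the 8 libraries (log2). The mean is scaled for transcript length per the study's methods. All genes are in grey and the members are shown by role. Members lie within the cloud of all genes, with SNHG6 highest at 0.39 and SDs lower at low levels.

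The proteins that act on these transcripts were read in the same fit, and in each of 5 lists 0 genes were called. For the counts of genes apart in all 4 pairs, the shares over all genes were 13.4% higher and 10.5% lower. Most genes of the lists had a mean level of at least 5, where 973 of 10858 genes were higher and 1473 lower. The median log2 FC of all genes at that level was -0.010. Protein-coding snoRNA hosts, mostly ribosomal protein and translation factor genes, were all listed (35 of 35), with 3 higher and 4 lower in all 4 pairs, a median log2 FC of 0.025 and the largest value in NAP1L4, a histone chaperone (0.25 ± 0.25, limma adjusted p = 0.225). Of 17 nonsense-mediated decay factors, 1 was higher and 3 were lower in all 4 pairs, and the largest value was that of SMG8, a subunit of the SMG1 kinase complex (-0.24 ± 0.06, limma adjusted p = 0.0678). Of 20 snoRNP and scaRNA assembly proteins, 19 were listed, of which 1 was higher and 5 were lower in all 4 pairs, with NAF1, an assembly factor of H/ACA particles, at -0.22 ± 0.05 (limma adjusted p = 0.0822). Of 17 miRNA processing and Argonaute proteins, 0 were higher and 3 were lower in all 4 pairs, with TNRC6A, the GW protein that Argonaute recruits, at -0.24 ± 0.07 (limma adjusted p = 0.0677). Of 17 paraspeckle and speckle proteins, partners of NEAT1 and MALAT1, 0 were higher and 8 were lower in all 4 pairs, with a median log2 FC of -0.093 and HNRNPH3 at -0.20 ± 0.08 (limma adjusted p = 0.104).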

How the data were processed

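HepG2 RNA-seq libraries (4 pGRHL2, 4 pcDNA3) were grouped by the plasmid in the sample labels. Per its methods, the study aligned reads with HISAT2 (hg38) and used HTSeq in union mode for unstranded exon counts. The authors removed genes with few reads, applied the DESeq2 rlog transformation and divided by transcript length. The submitters' processing notes name HISAT2 2.2.1, HTSeq 0.9.1 and DESeq2 1.40.2. The deposited values were log2, not the FPKM of the table's name, with 3.71% below 0. Counts were not used here, so depth and counting error are unknown. 1 stray character was removed, and 0 value columns belonged to other samples.

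Same-numbered libraries had identical pair means in 17561 of 17561 genes (largest spread 1.5e-13), so the replicate number had been used to adjust the values. The pairing comes from this structure, and the correlation check for pairing is void. All genes were therefore fitted with the replicate number as a block (3 residual degrees of freedom, 6 without it) in limma 3.58.1 (lmFit, eBayes with trend; R 4.3.3), two-sided, with Benjamini-Hochberg adjustment over all genes at 0.05. The fit was tested on simulated data. For a single gene the exact sign-flip test of 4 pairs cannot go below 0.125.

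The members, lists and tests were chosen with earlier results of these data known. The rule for giving values took members called, the 8 genes listed by symbol and the 6 uncalled members with the largest log2 FC. It also took the 3 highest and 3 lowest in level, and GRHL2. Of each list it took the gene called or else the largest. Other members given with values lie outside this rule, among them SNHG4, SNHG6, SNHG12, SNHG19, SNHG32 and several miRNA hosts. A further list, of proteins that bind lncRNAs, is not reported here. Annotation was GENCODE release 44, matched by symbol for 64 of 65 members (not MIR30DHG), and sequences were from RefSeq GRCh38.p14 or GENCODE. Promoter entries were found for 54 members. Exon overlap counted bases shared with any other gene, leaving aside genes of the types snoRNA, scaRNA, miRNA, snRNA and misc_RNA. Copies were alignments by minimap2 2.31-r1302 that covered 50% or more of a transcript at 98% identity or more. Alternatives were robust eBayes, the fit without the block, eBayes without trend, library weights, median centring, a mean level of at least 5, an adjusted p under 0.01, and leaving out each pair.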

Additional observations from a re-analysis of the deposited data

Results flagged for a closer look

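For 3 of the 65 members (4.62%), 1 of the 4 pair differences lay far from the other 3 relative to their whole range by Dixon's 95% limit. Chance marks about 1 in 20 such sets of values. EPB41L4A-AS1 had a pair 3 difference of -0.22, where the median of its other pairs was 0.10. SNHG26 had 0.25 in pair 2, where the others had a median of -0.033. SNHG32 had -0.023 in pair 1, where the others had 0.011, at a level of 1.55 where differences are small. EPB41L4A-AS1 shares 51.3% of its exon bases with EPB41L4A on the other strand, whose log2 FC was 0.027 ± 0.04, and the part of this in the pair 3 value was not tested.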

How the results depend on the processing

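Without the replicate block, limma called 1821 genes higher and 1427 lower in place of 297 and 88, with 4 members higher and 5 lower in place of 0 and 0 (HULC, MIR1915HG, MIR600HG, MIR9-3HG, NEAT1, SNHG11, SNHG14, SNHG17 and SNHG5). It also called 6 protein-coding snoRNA hosts, 2 decay factors, 5 assembly proteins, 3 miRNA processing proteins and 5 paraspeckle and speckle proteins. Since the replicate means were removed before deposit, the fit without the block counts 6 residual degrees of freedom where the pairs hold 3. Library weights gave 503 higher and 221 lower genes, 1 member lower (SNHG17), 1 decay factor, 1 assembly protein and 2 miRNA processing proteins. Without the trend there were 4 and 2 genes, at an adjusted p under 0.01 there were 77 and 10, and at a mean level of at least 5 there were 63 higher genes. Leaving out 1 pair gave 79 to 156 higher and 8 to 68 lower genes, and 0 members called. Members with groups apart were 9 at a mean level of at least 5, since only 31 members remained (29.0%, against 22.5% of all genes at that level), and 20 to 26 with 1 pair left out (32.1% to 39.7% of all genes).

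The log2 FC of DANCR changed sign to -0.0064 with library weights and to -0.0029 with median centring. With 1 pair left out, the log2 FC ranged from -0.059 to 0.021 for GAS5, from -0.059 to 0.072 for DANCR, from -0.011 to 0.10 for EPB41L4A-AS1 and from -0.0060 to 0.13 for OIP5-AS1, each crossing 0. The directions of SNHG17, SNHG11, SNHG5 and NEAT1 did not change under any of the alternatives. Leaving out 1 pair moved other values by more than 1.5 times without a change of sign, the largest factor of each gene being given: SNHG11 to -0.13, SNHG8 to -0.080 and MIR100HG to 0.016 without pair 3, SNHG14 to 0.098 and MIR1302-9HG to -0.023 without pair 2, NORAD to -0.0074 without pair 4 and MALAT1 to -0.00048 without pair 1. The depth was unknown, and rlog shrinks low values. Counted without strand, reads in exon bases shared with another gene could not be assigned to 1 gene. With small RNA genes left aside, 7 members had at least 30% of exon bases shared and 22 had 0%, so smaller overlaps touch further members. Small RNA genes also lie within exon bases of many snoRNA hosts.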
